A study of Mus musculus with 2 samples.

Results

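The 10 genes, followed in RNA from mouse villi, are mucus and fate genes of goblet cells, the mucus-secreting cells of the intestinal epithelium. They were taken by symbol: Muc2, Tff3, Fcgbp, Agr2, Zg16, Spink4, Spdef, Tpsg1, Atoh1 and Creb3l1, which are 10 of 20722 symbols in the table. Each had 1 RefSeq transcript row, and all 10 passed the limit used here for a measured gene, a mean of at least 20 normalised counts over both libraries. Tpsg1 passed it, at a mean of 20.8, only through its 33.2 normalised counts in the dKO-labelled library, against 8.43 in the control.

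Messenger RNA libraries, 1 per genotype, were made from small-intestinal villi of C57BL/6 mice. The dKO-labelled library came from mice of the genotype Rosa26-CreERT2 Cdkn2a-/- Ring1a-/- Ring1b f/f, with Ring1a lost constitutively and Ring1b floxed, and the control library from Rosa26-CreERT2 Cdkn2a-/- mice. The labels do not say how many mice a library holds. Both genotypes thus carried a ubiquitously expressed, tamoxifen-inducible Cre and lacked Cdkn2a, and both were taken 6 days after 3 tamoxifen injections. Ring1a (Ring1) and Ring1b (Rnf2) are the ubiquitin ligases of Polycomb repressive complex 1, and the comparison asks how villus genes differ when both are removed. Because the Cre is not restricted to the epithelium, deletion in other cells of the mouse is not separated from deletion in goblet cells.

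Goblet cells secrete the gel that separates the villus surface from the gut contents. Its scaffold is the mucin Muc2, which is folded in the endoplasmic reticulum with the help of the disulfide isomerase Agr2, is heavily O-glycosylated in the Golgi and is released with Fcgbp, Zg16, Tff3 and Spink4. Atoh1 directs progenitors away from the absorptive fate, which Notch signalling favours, and Spdef acts after it in goblet cell maturation. These cells are scattered among far more numerous enterocytes, and RNA from whole villi cannot tell fewer goblet cells from less RNA per goblet cell.

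The libraries held 1058196 recovered reads in the dKO-labelled villi and 775827 in the control villi. With 1 library per genotype no difference below has a replicate check or a test, and the 95% intervals (exact, Clopper-Pearson) hold counting error alone. Neither targeted gene was lower beyond that error. Ring1 had 10 reads in the dKO-labelled library and 10 in the control, a ratio of 0.901 after scaling (0.337 to 2.41), and Rnf2 had 82 dKO-labelled and 59 control reads, a ratio of 1.25 (0.886 to 1.78). Counts over whole transcripts do not show a deleted exon, so the library is called dKO-labelled throughout. The animals also differed in sex, with 1 Xist read in the dKO-labelled library and 80 in the control, and 131 dKO-labelled and 0 control reads of the Y-linked Ddx3y. Genotype label, sex and library therefore cannot be told apart in any value that follows.

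The sequences before the transcription starts of 6 of the 10 genes were listed by RefSeq on build GRCm38.p6. Those of 5 are shown here, for the pair of secreted proteins with the lowest ratios (Muc2 and Fcgbp), for the folding enzyme Agr2 and for both epithelial fate factors with an entry. Each runs 5′ to 3′ on the strand of its gene over the 250 bases before the start, and capitals mark the searched motifs.
Muc2 (chr7:141690090-141690339, plus strand): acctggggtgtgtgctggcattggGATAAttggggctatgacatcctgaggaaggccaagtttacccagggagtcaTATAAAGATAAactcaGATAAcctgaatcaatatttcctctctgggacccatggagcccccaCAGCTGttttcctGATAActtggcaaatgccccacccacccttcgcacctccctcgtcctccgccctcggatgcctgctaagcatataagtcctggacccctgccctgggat
Fcgbp (chr7:28070986-28071235, plus strand): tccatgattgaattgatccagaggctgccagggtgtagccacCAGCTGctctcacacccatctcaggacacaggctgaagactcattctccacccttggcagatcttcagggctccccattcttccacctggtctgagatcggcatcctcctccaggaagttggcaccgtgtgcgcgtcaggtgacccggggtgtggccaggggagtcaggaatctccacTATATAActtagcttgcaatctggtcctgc
Agr2 (chr12:35992675-35992924, plus strand): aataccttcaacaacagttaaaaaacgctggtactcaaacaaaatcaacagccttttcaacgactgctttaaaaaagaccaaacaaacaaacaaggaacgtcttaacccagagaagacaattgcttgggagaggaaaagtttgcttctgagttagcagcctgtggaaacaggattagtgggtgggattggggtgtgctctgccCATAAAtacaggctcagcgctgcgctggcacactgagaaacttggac
Spdef (chr17:27728952-27729201, minus strand): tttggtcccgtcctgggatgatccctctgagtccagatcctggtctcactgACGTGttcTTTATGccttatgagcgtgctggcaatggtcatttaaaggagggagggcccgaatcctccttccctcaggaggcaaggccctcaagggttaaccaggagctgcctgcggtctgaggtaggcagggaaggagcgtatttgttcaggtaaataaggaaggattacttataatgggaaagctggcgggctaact
Atoh1 (chr6:64728875-64729124, plus strand): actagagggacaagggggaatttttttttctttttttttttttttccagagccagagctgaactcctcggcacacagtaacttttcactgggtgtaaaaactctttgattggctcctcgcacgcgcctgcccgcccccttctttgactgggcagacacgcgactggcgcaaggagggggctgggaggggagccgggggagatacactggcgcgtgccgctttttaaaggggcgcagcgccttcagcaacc

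Motifs were searched as exact letters on both strands. They were the E-box CAGCTG, the kind of element that Atoh1 and related factors bind, GATAA for GATA factors, TTTATG for a site of the Cdx2 type, ACGTG for one of the Creb3 family type, CCGGAT for the ETS type preferred by Spdef, TATAAA as in a TATA box, and the longer TATATAA. The windows of Muc2 and Fcgbp each held 1 CAGCTG, at 112 and 208 bases before the start, which 13.0% of all 32851 listed promoters also hold. Muc2 held 4 copies of GATAA (22.6% of promoters have at least 1) and the letters TATAAA 174 bases before the start, directly ahead of one of them (12.4%). In Fcgbp the letters TATATAA stood 30 bases before the start (3.04%). Spdef held ACGTG (16.6%) and TTTATG (10.8%), and Agr2 held TTTATG in reverse. Atoh1 held none of the 7, and CCGGAT (4.94%) was in no window of the 6 genes. Atoh1 had the most CpG dinucleotides, in which Polycomb target promoters are often rich, with 14 in its window against 7 in Spdef, 5 in Fcgbp, 5 in Agr2 and 4 in Muc2, and a median of 6.0 over all promoters. A match of letters is a description and no evidence of binding.

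The secreted proteins were unequal. Muc2, the gel-forming mucin, had 671 reads in the dKO-labelled library, which is 634 RPM (reads per 1000000 recovered reads), and 1155 (1489 RPM) in the control. Fcgbp, a large cysteine-rich protein that is secreted with Muc2, had 1031 reads (974 RPM) in the dKO-labelled library and 1872 (2413 RPM) in the control. Both were lower in the dKO-labelled villi beyond counting error, and to nearly the same extent. After the deposited scaling Muc2 was 1.91-fold lower (1.74 to 2.10) and Fcgbp 2.01-fold lower (1.87 to 2.18). By read count Fcgbp ranked 68th among all genes in the dKO-labelled library and 11th in the control, and Muc2 ranked 206th in the dKO-labelled library and 34th in the control.

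The 3 small secreted proteins had higher ratios than this pair, an order that no scaling common to all genes can change. Their own ratios moved with the scaling. Zg16, a lectin that binds bacterial cell walls, had 957 reads in the dKO-labelled library and 961 in the control, a scaled ratio of 0.898 (0.820 to 0.983), or -0.16 on the log2 scale, against -0.80 with upper-quartile and -0.68 with TMM scaling. Tff3, the trefoil peptide of goblet cells, had 582 dKO-labelled and 535 control reads, a ratio of 0.981 (0.871 to 1.11), or -0.03 on the log2 scale, against -0.67 with upper-quartile and -0.55 with TMM scaling. Under those 2 scalings both were lower beyond counting error. The same held with total-read scaling, for Zg16 (0.730, 0.667 to 0.799) and Tff3 (0.798, 0.708 to 0.899). With the deposited scaling it held for Zg16 alone. Spink4, a small protein of the Kazal inhibitor family, had 493 dKO-labelled and 324 control reads, a ratio of 1.37 (1.19 to 1.58) that dropped below 1 with upper-quartile and TMM scaling (log2 -0.19 and -0.07). Its interval spanned 1 with upper-quartile (0.763 to 1.015), TMM (0.826 to 1.10) and total-read scaling (0.968 to 1.29). Summed, the 3 genes had 2032 reads in the dKO-labelled library and 1820 in the control, a ratio of 1.01 (0.944 to 1.07), whereas Muc2 and Fcgbp together had 1702 dKO-labelled and 3027 control reads, a ratio of 0.507 (0.477 to 0.538). These ratios move with the scaling. As shares of all reads the 3 small proteins had a ratio of 0.819 (0.768 to 0.872) and the pair one of 0.412 (0.388 to 0.438).

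**Figure D1:**
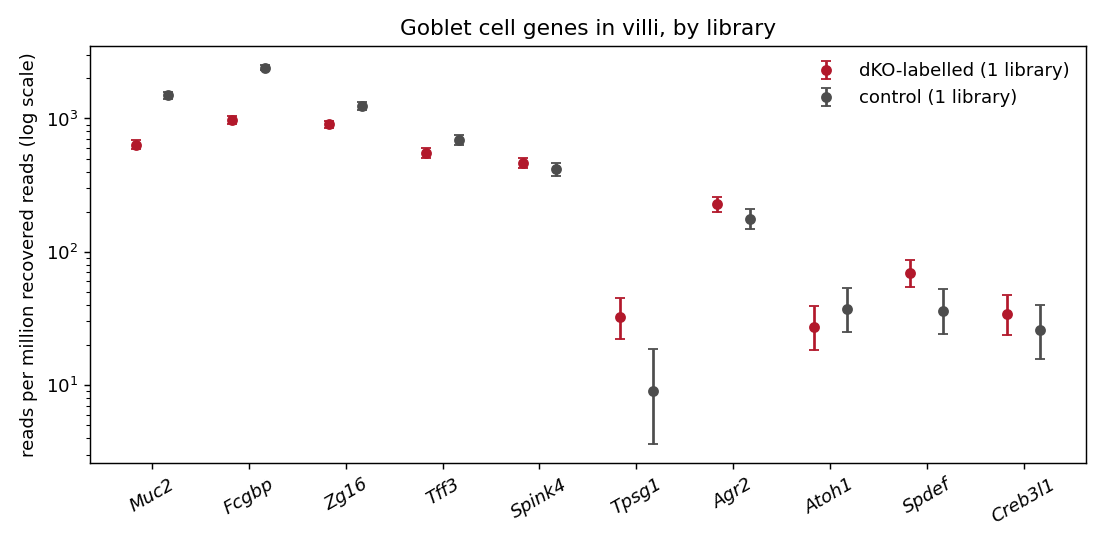
RPM (log axis) of each of the 10 goblet cell genes in the dKO-labelled library (red, left of each pair) and the control library (grey), with 95% exact binomial intervals for counting error. The intervals of Muc2 and Fcgbp lie far apart between libraries, with the dKO-labelled library lower, while those of Agr2, Spink4, Atoh1 and Creb3l1 overlap. For Agr2 the interval of the ratio of shares still excluded 1 (1.04 to 1.60).

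Agr2, the folding enzyme, lay on the other side. It had 241 reads in the dKO-labelled library and 137 in the control, a ratio of 1.59 (1.28 to 1.97), or 0.66 on the log2 scale, which shrank to 0.02 with upper-quartile scaling. The interval then spanned 1 (0.821 to 1.26), as it did with TMM scaling (0.889 to 1.37). With total-read scaling Agr2 stayed higher beyond counting error (1.29, 1.04 to 1.60). Its level per Muc2 read, which needs no scaling between libraries, was 35.9 Agr2 reads per 100 Muc2 reads in the dKO-labelled library (30.9 to 41.7) and 11.9 in the control (9.86 to 14.2). That is 3.03 times as many Agr2 reads for each Muc2 read (2.39 to 3.84).

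Of the 3 transcription factors, Spdef, the ETS factor of goblet maturation, had 73 reads in the dKO-labelled library and 28 in the control, a ratio of 2.35 (1.50 to 3.78). Atoh1, the bHLH factor of the secretory fate, had 29 reads in each, a ratio of 0.901 (0.520 to 1.56). Creb3l1, a membrane-bound factor that is activated by cleavage and promotes secretory pathway genes in other tissues, had 36 dKO-labelled and 20 control reads, a ratio of 1.62 (0.914 to 2.96). Under the deposited scaling Spdef differed beyond counting error, but with upper-quartile scaling its ratio was 1.51 and the interval spanned 1 (0.963 to 2.42). With total-read and TMM scaling it was 1.91 (1.22 to 3.07) and 1.63 (1.04 to 2.62), so it was under 2-fold with all 3. For Atoh1 and Creb3l1 a difference was not detectable at this depth. Spdef per Atoh1 read was 2.52 in the dKO-labelled library and 0.966 in the control, 2.61 times as high (1.26 to 5.40). Creb3l1 per Atoh1 read was 1.24 in the dKO-labelled library and 0.690 in the control, and the interval of that change spans 1 (0.796 to 4.09).

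Tpsg1, a membrane-anchored tryptase, had 34 reads in the dKO-labelled library and 7 in the control, a ratio of 4.38 with a wide interval (1.91 to 11.7). This was the highest ratio among the 10 genes and rests on the fewest control reads. Other tryptases are mast cell products. Over 8 mast cell genes there were 6 reads in the dKO-labelled library and 8 in the control. Cpa3, Mcpt4 and Tpsab1 had 0 reads in both libraries, where a count of 0 allows up to 3 reads by counting error alone. Low counts in this table do not show that a gene is silent, since the abundant chaperone gene Hspa5 had 1 dKO-labelled and 0 control reads. Whether mast cells gave any of the Tpsg1 reads was not tested.

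**Figure D2:**
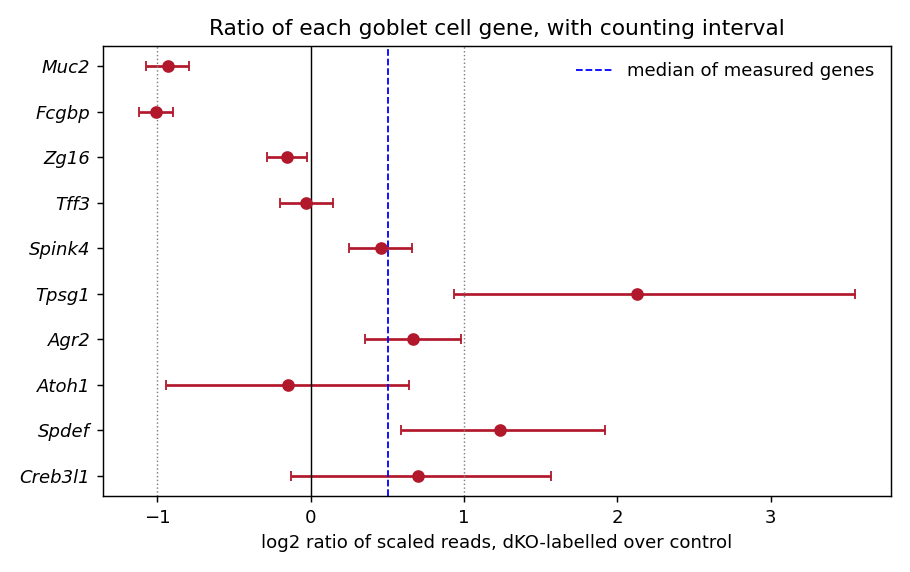
Log2 ratio of scaled reads, dKO-labelled over control, of each gene with its 95% counting interval. The solid line is 0, dotted lines are 2-fold, and the dashed line is the median log2 ratio of all measured genes (0.51). Muc2 and Fcgbp lie left of 0 and Tpsg1 and Spdef furthest right.

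By the 2-fold size rule on log2 of normalised counts plus 1, Spdef (log2 ratio 1.18) and Tpsg1 (1.86) were higher, Fcgbp (-1.01) was lower, and the other 7 lay between. Thus 2 of 10 were higher, beside 26.2% of 6001 measured genes, and 1 of 10 was lower, beside 4.18%. Tpsg1 passed the minimum mean through the dKO-labelled library alone, so its ratio had to be high. Muc2, at -0.93, lay just inside the limit, and 5 of the 10 were above 0 and 5 below. The median of the 10 was 0.21, and that of all measured genes was 0.51. Relative to the median of all, Muc2 (-1.44) and Fcgbp (-1.52) were at least 2-fold lower, where 10.4% of measured genes were, and Tpsg1 (1.35) was at least 2-fold higher, where 11.8% were. Spdef was then at 0.67. Zg16 (-0.66), Atoh1 (-0.65) and Tff3 (-0.54) lay below that median, and Agr2 (0.15), Creb3l1 (0.14) and Spink4 (-0.05) lay next to it. With total-read, upper-quartile or TMM scaling, 2 members (Muc2 and Fcgbp) were lower, beside 7.32%, 13.8% and 11.2% of measured genes, and 0 were higher, beside 16.3%, 8.91% and 11.1%. Under these 3 scalings Tpsg1 fell short of the minimum mean. With that minimum raised to 100, 0 of 6 members were higher (14.8% of genes) and 1 was lower (4.31%), and with the read that had been added to each count taken off, 1 was higher (27.0%) and 1 lower (4.15%). An exact binomial test on the reads, Benjamini-Hochberg adjusted at 0.05 over all measured genes, compares these libraries and not the genotypes. It called Agr2, Spink4, Spdef and Tpsg1 higher, beside 50.2% of genes, and Muc2, Fcgbp and Zg16 lower, beside 11.6%. In the authors' deposited table the unadjusted DESeq p-values of the 10 genes ranged from 0.234 for Tpsg1 to 0.984 for Tff3.

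As shares of all reads, which is total-read scaling, the 10 genes together took 3919 RPM in the dKO-labelled library (3801 to 4040) and 6532 in the control (6354 to 6714), a ratio of shares of 0.600 (0.576 to 0.625), against 0.738 (0.708 to 0.769) with the deposited scaling. Without Muc2 and Fcgbp the shares were 2311 RPM in the dKO-labelled library and 2631 RPM in the control, a ratio of 0.878 (0.828 to 0.932), whereas with the deposited scaling the ratio of the same sum was above 1, at 1.08 (1.02 to 1.15). The direction of the remaining 8 genes thus turned with the scaling. The make-up of the pool, as shares within the 10 genes, needs no scaling between libraries. Fcgbp made up 24.9% of the reads of the 10 genes in the dKO-labelled library (23.5 to 26.2) and 36.9% in the control (35.6 to 38.3), and Muc2 16.2% in the dKO-labelled library (15.1 to 17.3) and 22.8% in the control (21.6 to 24.0). The shares of the small proteins and of the folding enzyme went the other way. Spink4 made up 11.9% in the dKO-labelled library (10.9 to 12.9) and 6.39% in the control (5.74 to 7.10), and Agr2 5.81% in the dKO-labelled library (5.12 to 6.57) and 2.70% in the control (2.27 to 3.19).

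Set against Muc2, its partner Fcgbp stood in nearly the same proportion, with 154 reads per 100 Muc2 reads in the dKO-labelled library (139 to 170) and 162 in the control (151 to 175), a ratio of 0.948 whose interval spans 1 (0.838 to 1.07). Tff3 was at 86.7 reads per 100 Muc2 reads in the dKO-labelled library and 46.3 in the control, 1.87 times as many (1.61 to 2.18). Zg16 was at 143 in the dKO-labelled library and 83.2 in the control, 1.71 times as many (1.50 to 1.96). Spink4, at 73.5 in the dKO-labelled library and 28.1 in the control, was 2.62 times as frequent (2.20 to 3.11). So relative to Muc2 the dKO-labelled library held more of each small secreted protein, of Agr2, of Spdef (4.49 times, 2.83 to 7.28), of Creb3l1 (3.10 times, 1.73 to 5.70) and of Tpsg1 (8.36 times, 3.62 to 22.5). For Atoh1 the interval included 1 (1.72 times, 0.983 to 3.01). Among the small proteins, Tff3 per Zg16 read was 0.608 in the dKO-labelled library and 0.557 in the control, and the ratio of these spans 1 (1.09, 0.940 to 1.27). Spink4 per Zg16 read was 1.53 times as high (1.29 to 1.81), and Agr2 per Zg16 read 1.77 times (1.40 to 2.24). For Agr2 per Spink4 read the interval spans 1 (1.16, 0.892 to 1.50). Though free of scaling, these ratios may carry transcript length, with which ratios moved over the whole table. Median log2 ratios were 0.72 under 1000 bases, the class of Tff3, Zg16, Spink4 and Agr2, and 0.18 from 6000. Muc2 had no linked length, and the part of length was not tested. Ratios to Muc2 also carry the lower Muc2 count of the dKO-labelled library. Set against the other 9 genes instead, Fcgbp was at 0.565 (0.515 to 0.619), Muc2 at 0.654 (0.588 to 0.728), Zg16 at 1.28 (1.16 to 1.42), Tff3 at 1.38 (1.22 to 1.57), Spink4 at 1.98 (1.70 to 2.30) and Agr2 at 2.22 (1.79 to 2.77).

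**Figure D3:**
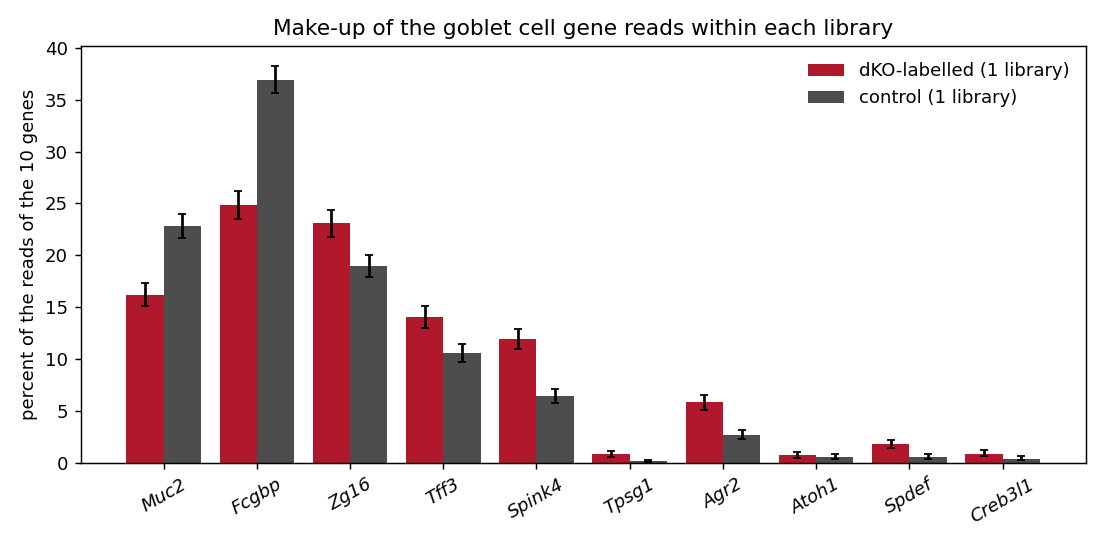
Share of each gene in the summed reads of the 10 genes (percent, bars from 0, with 95% exact binomial intervals) in the dKO-labelled library (red, left bar of each pair) and the control library (grey). Muc2 and Fcgbp take smaller shares in the dKO-labelled library, and Zg16, Tff3, Spink4 and Agr2 larger ones.

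Levels can be compared between genes only per transcript length, which was linked by accession for 9 of the 10. Muc2 had no linked length. Per 1000 bases Zg16 was highest in both libraries, at 1505 reads in the dKO-labelled library and 1511 in the control. In the dKO-labelled library Spink4 (1242) and Tff3 (1181) followed and their intervals overlapped, ahead of Agr2 (307) and Fcgbp (130). Spdef (38.0) and Tpsg1 (28.7) overlapped each other there, as did Creb3l1 (13.8) and Atoh1 (13.7). In the control the order was Tff3 (1085), Spink4 (816), Fcgbp (236) and Agr2 (175), whose intervals did not overlap. Spdef (14.6), Atoh1 (13.7), Creb3l1 (7.68) and Tpsg1 (5.90) followed, each overlapping the next. Agr2 and Fcgbp thus stood in opposite order in the libraries. For Spink4 and Tff3 the order was resolved only in the control, where Tff3 was higher.

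Transcript length moved with the ratios over the whole table. The median log2 ratio was 0.72 for 492 measured genes under 1000 bases, 0.61 in the class that begins at 1000, 0.53 in that from 2000, 0.39 in that from 4000, and 0.18 for 698 genes of 6000 bases or more. At least 2-fold lower were 3.46% of the shortest class and 9.89% of the longest. Fcgbp, with 7928 bases, belonged to the longest class and lay below its median, at -1.19 relative to it. Tff3 (493 bases), Zg16 (636), Spink4 (397) and Agr2 (784) belonged to the shortest, and all 4 lay below its median, at -0.75, -0.88, -0.27 and -0.07 relative to it. Tpsg1 (1.25), Spdef (0.56) and Creb3l1 (0.11) lay above their class medians and Atoh1 (-0.68) below. At least 2-fold from the median of their class were Tpsg1 above (11.7% of genes) and Fcgbp below (9.74%). Spearman's rho of length and log2 ratio was -0.19 over 5957 genes and -0.12 over the 9 members, which share both libraries. The part of length in the ratio of Fcgbp, in the ratios to Muc2 and in the shares within the 10 genes was not tested.

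**Figure D4:**
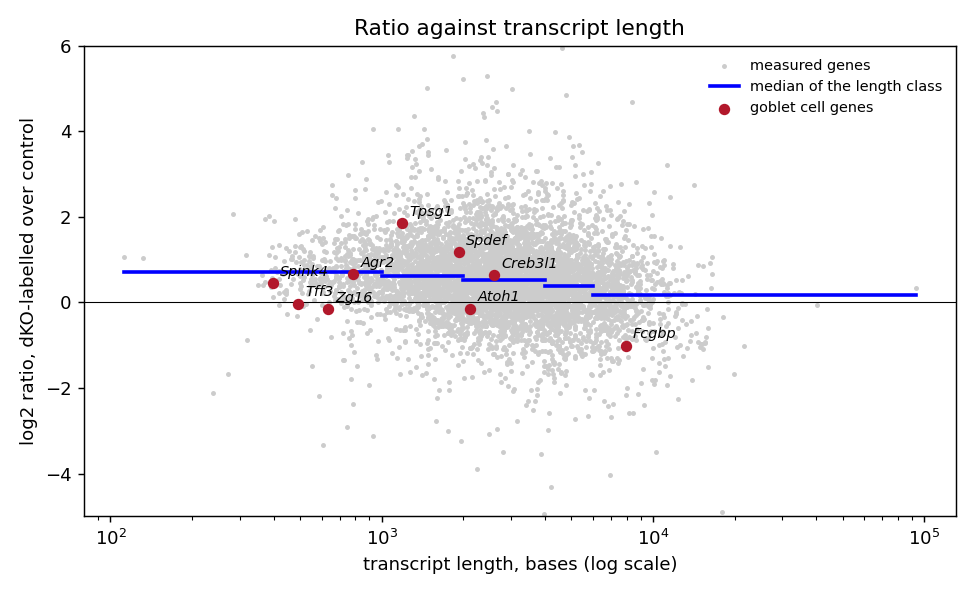
Log2 ratio, dKO-labelled over control, against transcript length in bases (log axis) for 5955 measured genes (grey) and the 9 goblet cell genes with a linked length (red). Blue lines are medians of 5 length classes and step down from 0.72 to 0.18. Beyond the vertical axis lie 2 genes.

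Counts in the lists that follow stand beside 26.2% of all measured genes at least 2-fold higher and 4.18% lower. Of 20 further goblet cell genes, 13 were measured, of which 6 were at least 2-fold higher and 0 lower, with a median log2 ratio of 0.91 against 0.51 over all measured genes. Relative to that median 2 were higher and 0 lower, near the shares of all genes (11.8% and 10.4%). Sytl4 and Sytl2, synaptotagmin-like proteins of granule exocytosis, differed most. Sytl4 had 71 dKO-labelled and 9 control reads, a ratio of 7.11 (3.54 to 16.2), and passed the minimum mean through the dKO-labelled library alone. Sytl2 had 68 dKO-labelled and 19 control reads, a ratio of 3.23 (1.92 to 5.68). Guca2a, encoding the hormone guanylin that enterocytes also make, had 364 dKO-labelled and 119 control reads (2.76, 2.24 to 3.42). The cargo receptor gene Tmed3 had 207 dKO-labelled and 76 control reads (2.46, 1.88 to 3.24). Clca1, a secreted protease of the mucus that is named here after its values were seen, had 475 dKO-labelled and 427 control reads, a ratio of 1.00 (0.878 to 1.15). The gel-forming mucins of other organs had few or no reads. Muc5ac, Muc5b, Muc6 and Muc19 had 2, 2, 3 and 1 reads in the dKO-labelled library and 0, 0, 1 and 0 in the control.

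The enzymes that build mucin O-glycans mostly lay within 2-fold. Of 29 genes, 17 were measured, with 1 at least 2-fold higher, 3 lower and 13 between, and a median of 0.03. Gcnt3, the mucin-type branching enzyme that makes core glycans, had 135 reads in the dKO-labelled library and 443 in the control, 3.64-fold lower (3.00 to 4.45). B4galt1, a galactosyltransferase, had 329 dKO-labelled and 653 control reads, 2.20-fold lower (1.93 to 2.52), and the sulfotransferase gene Chst4 12 dKO-labelled and 27 control reads (2.50-fold lower, 1.22 to 5.41), passing the minimum mean through the control library alone. St3gal1, a sialyltransferase, had 263 dKO-labelled and 52 control reads, 4.56-fold higher (3.38 to 6.26). Set against the overall median, 5 of the 17 measured enzymes were at least 2-fold lower, beside 10.4% of all measured genes. Only 1 was higher, beside 11.8%. Among the 5, Gcnt3 (4301 bases) and C1galt1 (6092) belonged to length classes with medians below that of all genes. B4galt1 (3983), Galnt3 (3885) and Chst4 (1942) did not. The part of length was not tested.

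The folding and secretory pathway genes had 20 of 27 measured, 2 higher and 0 lower, with a median of 0.29. The 2 were the isomerase gene Pdia4 (59 dKO-labelled and 24 control reads, ratio 2.22, 1.36 to 3.73) and Sdf2l1, a partner of endoplasmic reticulum chaperones (35 dKO-labelled and 13 control reads, a ratio of 2.43, with a lower limit of 1.25), which passed the minimum mean through the dKO-labelled library alone. Set against the overall median neither was 2-fold higher, where 11.8% of all measured genes were. Of the 20 measured, 3 others were lower, near the 10.4% of all measured genes. Agr2 (log2 0.66) lay above this list's median. Hspa5, the abundant chaperone BiP, was listed at 1 read in the dKO-labelled library and 0 in the control, so a count near 0 in this table does not show that a gene is silent. Hspa5 has 1 transcript row. Over all symbols, 14.5% of 1171 with several transcript rows were measured, against 29.8% of 19551 with 1 row. Over all lists other than the 10 genes, these were 1 of 9 and 113 of 176.

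Both measured Notch ligands, Dll1 and Dll4, were lower. A further ligand gene, Jag1, fell short of the minimum mean, with 21 dKO-labelled and 17 control reads (1.11, 0.560 to 2.25). Of 21 genes of Notch signalling and the secretory fate, 11 were measured, with 1 higher, 3 lower and a median of 0.33. Dll4 had 11 reads in the dKO-labelled library and 51 in the control, 5.14-fold lower (2.65 to 10.9), and Dll1 had 30 dKO-labelled and 56 control reads, 2.07-fold lower (1.31 to 3.34). Both encode ligands that secretory cells present to their neighbours, and Dll4 is also made by endothelium. The receptor gene Notch2 had 13 dKO-labelled and 40 control reads, 3.41-fold lower (1.79 to 6.96). Notch1 went the other way, with 22 dKO-labelled and 6 control reads (3.3, 1.3 to 9.96), but fell short of the minimum mean. Hes6, a bHLH gene of differentiating secretory cells, had 106 dKO-labelled and 39 control reads, 2.45-fold higher (1.68 to 3.63). Dll4 and Notch2 passed the minimum mean through the control library alone, so their ratios had to be low. Notch2 has 10500 bases, in the length class with the lowest ratios. Of 15 paralogs of the members, 7 were measured, with log2 ratios between -0.65 and 0.96. Furthest from 0 were those of the ETS gene Ehf (125 dKO-labelled and 57 control reads, 1.98, 1.43 to 2.75) and of Creb3l2 (63 dKO-labelled and 90 control reads, 0.631, 0.450 to 0.880). Membrane mucins, which coat enterocytes, were measured for 3 genes. Muc13 had 2092 dKO-labelled and 2298 control reads (0.821, 0.773 to 0.871), and Muc4, of 11277 bases, 17 dKO-labelled and 64 control reads (0.239, 0.132 to 0.414), with the minimum mean reached through the control library alone. The mucin-like Cdhr5 had 156 dKO-labelled and 87 control reads (1.62, 1.24 to 2.13).

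Sums over markers of other cells are given with the deposited scaling, under which the median log2 ratio of all measured genes was 0.51. A few genes carried several of the sums. Over 12 genes of Paneth cells, which are secretory cells of the crypt base, there were 3716 dKO-labelled and 2341 control reads (ratio 1.43, 1.36 to 1.51). As shares of all reads these were 3512 RPM in the dKO-labelled library and 3017 in the control. Both libraries, though labelled villi, may thus hold reads from crypts. The median log2 ratio of the measured Paneth cell genes was 0.51, that of all measured genes. Over 12 enteroendocrine genes there were 3040 dKO-labelled and 2050 control reads (1.34, 1.26 to 1.41). Their shares were 2873 RPM in the dKO-labelled library and 2642 in the control, and their median log2 ratio was -0.17. Without the granins Chga and Chgb there were 928 dKO-labelled and 1062 control reads, a ratio on the other side of 1 (0.788, 0.721 to 0.861). Over 8 tuft cell genes there were 315 dKO-labelled and 488 control reads (0.582, 0.503 to 0.672), and without the channel gene Trpm5 the interval spanned 1 (282 dKO-labelled and 299 control reads, 0.850, 0.720 to 1.00). The 12 enterocyte genes had 14908 dKO-labelled and 16148 control reads (0.832, 0.814 to 0.851), of which Apob had 2133 dKO-labelled and 6742 control reads. Without Apob the ratio was above 1, with 12775 dKO-labelled and 9406 control reads (1.22, 1.19 to 1.26). The 11 stromal genes had 392 dKO-labelled and 78 control reads (4.53, 3.55 to 5.85), with Acta2 at 72 dKO-labelled and 3 control reads and Col3a1 at 72 dKO-labelled and 8 control reads. Of the 7 stromal genes measured, 5 reached the minimum mean through the dKO-labelled library alone, so their ratios had to be high. The 7 immune cell genes had 95 dKO-labelled and 65 control reads (1.32, 0.951 to 1.84). The part that differences in other cells had in the goblet cell values was not tested.

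**Figure D5:**
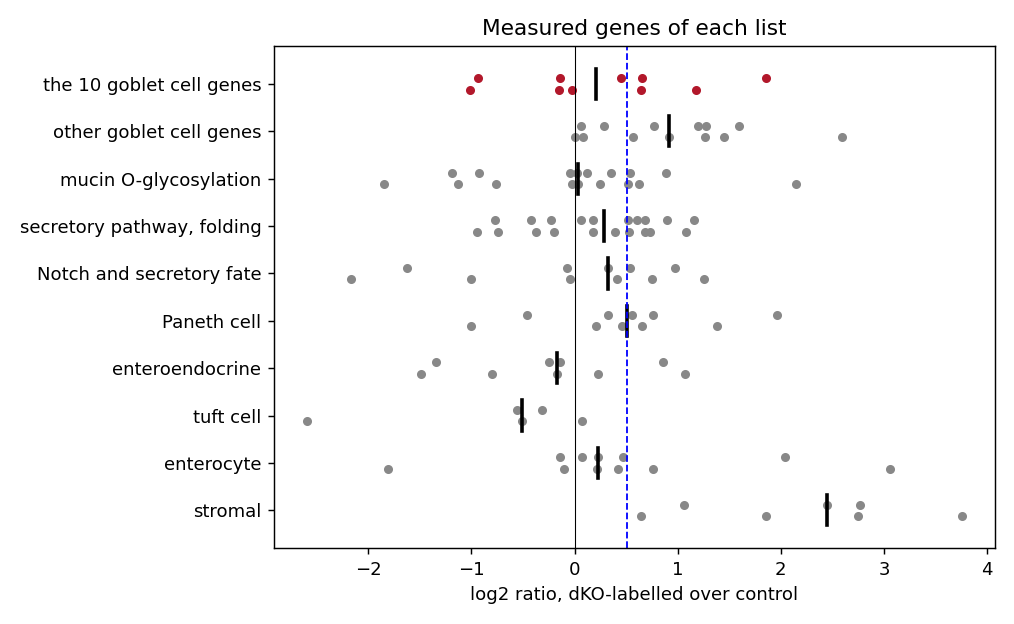
Log2 ratios, dKO-labelled over control, of the measured genes of the 10 goblet cell genes (red) and of 9 further lists (grey). Black bars are medians, the solid line is 0, and the dashed line is the median of all measured genes (0.51). The medians range from -0.51 (tuft cell) to 2.44 (stromal), and the 10 goblet cell genes have a median of 0.21.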

How the data were processed

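One table for the whole series held the data. TopHat, DESeq and build mm9 are named, per the submitters' processing notes, while how reads were counted and whether by strand is not given in the sources used here. Signal columns deposited by the authors are normalised counts of reads per RefSeq transcript (22040 rows). Every value was a whole multiple of its column's smallest value (100% of values within 0.001 of a step), so reads were recovered as steps minus 1, an inference from the values. The fold (ratio) and log2 columns deposited by the authors are quotients of the signal columns, and their p-value column is unadjusted. Of the identifiers, 98.5% matched RefSeq names.

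Symbols with several rows (1171) kept the row with the highest mean. Genes were compared by log2((dKO + 1)/(control + 1)) of normalised counts. Ratios are of recovered reads over the ratio of size factors (1.11), with Clopper-Pearson intervals, and odds ratios within libraries have exact conditional intervals. Genes were called at 2-fold by size, without a test. Reads of genes with near-identical copies may have been split. Lengths came from GENCODE M21 by accession. Both references differ from mm9, so no coordinates of the table are given. Promoters came from RefSeq on GRCm38.p6, leaving off the 50 bases after the start.

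All 10 genes were named. In the other lists up to 4 measured genes with the largest absolute log2 ratio were named. The members and lists were chosen with earlier results of these data known. Alternatives were other scalings, a pseudocount of 5, other filters, summed rows, the added read taken off, the other 9 genes in place of Muc2 as denominator, and a binomial test. Leaving single genes out of the list sums was added after seeing the data. The functions were tested on simulated data. Python 3.11.15, pandas 2.3.3, numpy 2.4.6, scipy 1.17.1, matplotlib 3.10.9, and edgeR 4.0.16 in R 4.3.3 for TMM were used.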

Additional observations from a re-analysis of the deposited data

How the results depend on the processing

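Each genotype had 1 library, so no replicate could be left out. No paired analysis was possible because each genotype had a lone library. Measured genes at least 2-fold higher and lower, 1574 and 251, numbered 972 and 436 with total-read scaling, 528 and 818 by upper quartile, 657 and 665 by TMM, 711 and 626 with the median of measured genes at 0, and 694 and 580 when this was done per length class, an alternative added after seeing the data. They numbered 3704 and 892 with no filter and 358 and 104 at a mean of at least 100. A binomial test on the reads with Benjamini-Hochberg adjustment, which compares these libraries and not the genotypes, called 3013 higher and 698 lower.

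Among the 10 genes, 2 were higher and 1 lower. With total-read, upper-quartile or TMM scaling the counts were 0 and 2, with the median set to 0 they were 1 and 2, and with the length classes set to 0 they were 1 and 1. They were 0 higher at a mean of at least 100, 1 higher with the added read taken off (Tpsg1 then missed the minimum mean), and 4 and 3 with the binomial test, which added Agr2 and Spink4 above and Muc2 and Zg16 below. Their median log2 ratio, 0.21, became -0.085 with total reads, -0.43 with upper-quartile scaling, -0.31 under TMM, -0.29 with the median at 0, -0.27 by length class and -0.092 at a mean of at least 100. No member called by the 2-fold rule changed sign under any scaling that kept it measured. Agr2, called by the binomial test, was at -0.07 by length class, against 0.66. Spink4 was at 0.16, -0.19 and -0.07 with total reads, the upper quartile and TMM, against 0.45. The ratio of summed shares, 0.600, was 0.715 without Fcgbp and 0.651 without Muc2. Depth limits Tpsg1, Atoh1 and Creb3l1, each with at most 36 reads in a library. Summed ratios of marker lists turned or moved without the genes that carried them, an alternative added after seeing the data: enteroendocrine 0.788 without Chga and Chgb (1.34 with them), enterocyte 1.22 without Apob (0.832 with it) and tuft 0.850 without Trpm5 (0.582 with it).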
